A study of Mus musculus with 16 samples.

Results

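The genes described here encode the machinery of oxidative phosphorylation in mouse alveolar macrophages: the 4 complexes of the respiratory chain and the ATP synthase. They were chosen by symbol, as every gene of the deposited table whose name begins with Nduf, Uqcr, Atp5, Cox4, Cox5, Cox6, Cox7 or Cox8, together with Sdha, Sdhb, Sdhc, Sdhd and Cyc1. This gave 82 of the 7946 genes in the table. The rule itself uses symbols only, but it was set with earlier results of these data known. Of the 82 genes, 39 carried a complex I name, among them 7 core subunits, 27 accessory subunits, 4 assembly factors and the pseudogene Ndufs5-ps. Complex II had 4 genes, complex III 6, complex IV 16, with Ndufa4 and its relative Ndufa4l2 counted there because NDUFA4 is a subunit of cytochrome c oxidase, and complex V 17. Subunits encoded by mitochondrial DNA were not analysed here.

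Oxidative phosphorylation takes place in the inner mitochondrial membrane. Complex I accepts electrons from NADH and complex II from succinate, ubiquinone carries them to complex III, cytochrome c carries them to complex IV, and complex IV hands them to oxygen. Complexes I, III and IV pump protons, and ATP synthase lets the protons back to make ATP. Resident alveolar macrophages live in the oxygen- and lipid-rich airspace and are known for reliance on fatty acid oxidation and mitochondrial respiration, whereas macrophages activated acutely by LPS in culture are known for a shift towards glycolysis.

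The libraries came from C57BL6 mice that inhaled aerosolized PBS, or PBS with 0.5 mg/ml of Escherichia coli LPS, for 30 min, 3 times a week, over 10 weeks. Alveolar macrophages, sorted as CD45-, CD11c- and Siglec-F-positive lung cells, were fixed, stained inside the cell for the cell cycle inhibitor p16, and separated into p16-positive and p16-negative cells. The 4 groups were therefore PBS p16-negative, PBS p16-positive, LPS p16-negative and LPS p16-positive, each with 4 libraries made from sorted pools of cells by a bulk form of MARS-seq, which counts the 3' ends of mRNAs by unique molecular identifiers (UMIs). Neither the age of these mice nor the animals behind each library are given in the labels, so p-values measure only the spread between libraries.

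The 16 libraries held between 13861 and 1176358 UMIs, and both PBS libraries with replicate number 1 were the shallowest. Levels are given as scaled CPM, the UMIs of a gene relative to the library's total of tested genes on the usual CPM scale, after correction for composition by the TMM method (trimmed mean of M-values). Levels are thus divided by a TMM factor per library, from 0.733 in LPS p16-negative replicate 3 to 1.92 in PBS p16-positive replicate 1. The factor of PBS p16-negative replicate 1 was next highest, at 1.47. A count of 3 UMIs corresponded to between 2.58 and 132 scaled CPM, depending on the library. All 18 markers listed for alveolar macrophages were in the table, at a summed 2652 to 9400 CPM of each library's total. Markers of other cells were present too, in some libraries above those of macrophages. The 8 secretory airway markers summed to between 779 and 268018 CPM, with the highest sums in PBS p16-positive replicate 1 (268018), PBS p16-negative replicate 1 (177658) and LPS p16-positive replicate 2 (91776). The 8 alveolar type II markers summed to between 1194 and 49429 CPM and the 9 endothelial markers to between 172 and 11210 CPM, both highest in the PBS p16-positive group. Fewer cells of a type and less RNA per cell cannot be told apart in such bulk libraries.

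The 82 genes held 65743 of 3734815 UMIs, or 1.76%. Abundance was very uneven. Cox4i1, the common isoform of complex IV subunit 4, alone accounted for 13.4% of these UMIs, the top 5 genes for 33.0% and the top 10 for 48.0%, whereas the median gene had 395 UMIs over all libraries. Behind Cox4i1, with 8780 UMIs, came the complex I accessory subunits Ndufb7 (4740 UMIs), Ndufa2 (3370), Ndufa3 (2601) and Ndufb10 (2174), the small complex III subunit Uqcr11 (2090), the complex IV subunit Cox6b1 (2087) and the ATP synthase subunit Atp5j2 (2041). A UMI was seen in every library for 39 of the 82 genes. Of the 82, 79 reached the 30 UMIs needed for testing. The 3 that did not were Atp5g2 (23 UMIs), a gene for the proton-carrying c subunit of ATP synthase, Ndufa4l2 (21), an NDUFA4 paralogue known from hypoxia and from vascular mural cells, and the complex I assembly factor Ndufaf7 (29).

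Nuclear respiratory genes are known to share promoter motifs for ETS-family factors such as GABPA, for NRF1 and for ERRA. RefSeq promoters, spanning 250 bases before to 50 bases after the start on GRCm38.p6, were found for 69 of the 82 genes. On either strand, CCGGAAG (ETS family) occurred in 17 of them (24.6%), against 19.6% of the promoters of all table genes and 9.12% of all promoters in the reference. GCATGCGC (NRF1) occurred in 9 (13.0%), against 5.31% and 2.80%, and TCAAGGTCA (ERRA) in 2 (2.90%), against 0.281% and 0.407%. At least 1 of the 3 motifs was in 22 promoters (31.9%), against 24.0% of table genes and 11.8% of all promoters. The 120 bases just before the start are shown for 3 genes whose unadjusted p was under 0.05 in the comparison of LPS with PBS, one with an ETS match, one with an NRF1 match and one with none of the 3 in this stretch; capitals mark the matches.
Uqcrh, chr4:116075071-116075190, minus strand: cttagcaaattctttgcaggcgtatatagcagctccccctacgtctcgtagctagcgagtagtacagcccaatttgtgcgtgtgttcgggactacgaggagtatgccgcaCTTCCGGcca
Sdhb, chr4:140961151-140961270, plus strand: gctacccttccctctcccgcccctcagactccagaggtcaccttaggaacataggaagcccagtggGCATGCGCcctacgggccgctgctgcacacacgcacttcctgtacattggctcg
Ndufa3, chr7:3617253-3617372, plus strand: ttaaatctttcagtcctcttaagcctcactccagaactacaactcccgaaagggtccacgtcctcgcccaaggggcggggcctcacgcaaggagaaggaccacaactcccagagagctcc
In Uqcrh the match lay on the reverse strand and began 10 bases before the start, and in Sdhb it began 54 bases before it. A match describes these letters and says nothing of binding.

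The share of each library's UMIs that fell on the 82 genes was the first measure compared. In PBS p16-negative cells it was 1.33%, 1.73%, 1.52% and 1.87% in replicates 1 to 4, and in PBS p16-positive cells 1.32%, 1.56%, 1.46% and 1.55%. In LPS p16-negative cells it was 1.59%, 1.97%, 1.76% and 1.81%, and in LPS p16-positive cells 1.80%, 1.79%, 1.64% and 1.89%. Every LPS p16-positive library was thus above every PBS p16-positive library, with means of 1.78% ± 0.104 and 1.47% ± 0.111 (SD, n = 4), whereas the p16-negative groups overlapped, at 1.78% ± 0.156 and 1.61% ± 0.236. The exact Clopper-Pearson 95% interval, which covers counting error only, was 1.14% to 1.52% in the shallowest library and 1.87% to 1.92% in the deepest. The separation in p16-positive cells depended on the denominator. With the marker genes of other cell types taken out, PBS p16-positive libraries ranged from 1.52% to 1.88% and LPS p16-positive libraries from 1.67% to 2.03%, which overlap, with means of 1.70% and 1.86%. It also depended on 1 gene, Cox4i1. Without it the share was 1.15% to 1.38% in PBS p16-positive and 1.33% to 1.69% in LPS p16-positive libraries, which overlap as well. The part of those marker genes in the difference was not otherwise tested.

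**Figure D1:**
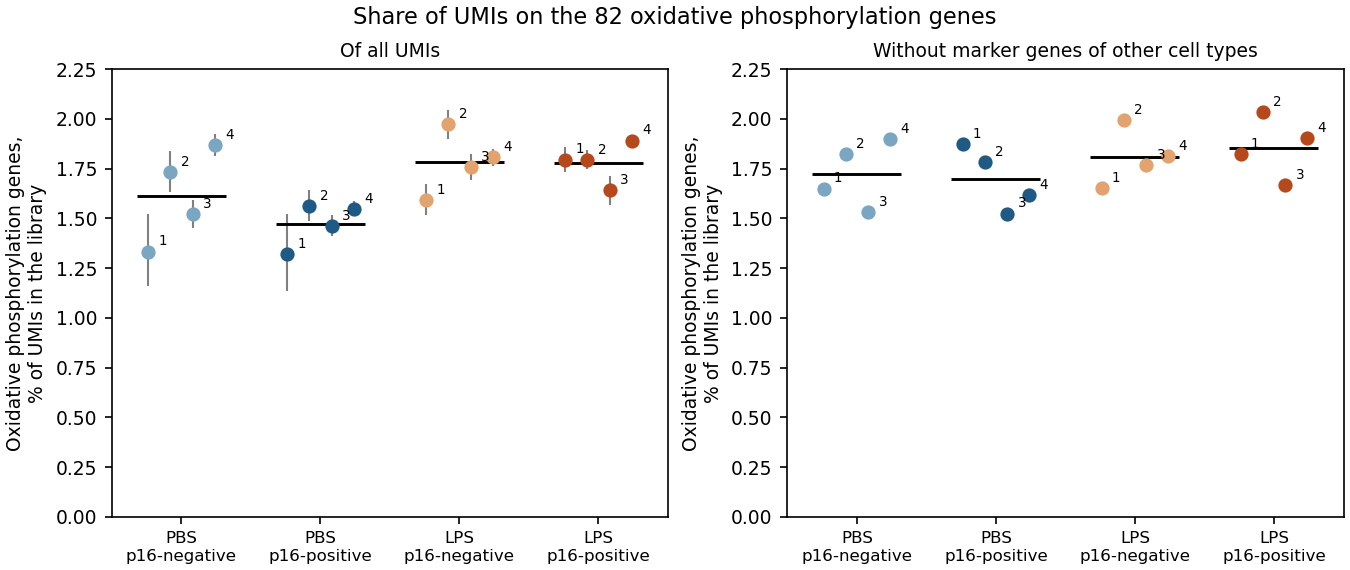
Share of each library's UMIs, in percent, on the 82 oxidative phosphorylation genes in the 4 groups, over all UMIs (left, with 95% Clopper-Pearson intervals) and over UMIs without marker genes of other cell types (right); points are libraries with their replicate number and lines are means. On the left the LPS p16-positive libraries (1.64% to 1.89%) lie above the PBS p16-positive libraries (1.32% to 1.56%), and on the right these groups overlap.

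The comparison of LPS with PBS, over both fractions, asked what 10 weeks of inhaled LPS went with in these cells. Its test treated the 8 libraries of each treatment as independent, which they are not if the fractions of a replicate number share an animal. In that case its standard errors and p-values could be too small. None of the 79 tested genes passed an adjusted p of 0.05 in edgeR's quasi-likelihood test with Benjamini-Hochberg adjustment, a threshold that 0.921% of all 6516 tested genes passed (60 genes). DESeq2 called 2 of the 79, Cox4i1 and its isoform Cox4i2, against 135 of all 6516 genes. In limma voom 1 was called, Cox4i2, against 127 of all genes. At an unadjusted p under 0.05 there were 7, against 9.27% of all genes. Of these, 6 had higher levels after LPS (Cox4i1, Uqcrh, Uqcr10, Ndufa3, Ndufb10 and Sdhb), where 5.2% of all genes did, and 1 had a lower level (Cox4i2), where 4.07% of all genes did. As shares of the 79 genes these counts were 7.59% and 1.27%, and they are too small to read as a difference from all genes.

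The direction of the fold changes was nonetheless uneven. Of the 79 genes, 64 (81.0%) had a positive log2 fold change for LPS against PBS, compared with 61.0% of all tested genes, and their median was 0.29, compared with 0.14 over all genes. The distance between those medians was 0.15 and kept its sign in every alternative run, from 0.07 without PBS p16-positive replicate 3 to 0.18. Among the 46 genes with at least 300 UMIs, 44 were positive with a median of 0.39, beside 79.1% positive and a median of 0.28 over the 1976 genes of that abundance. The absolute values moved with the scaling and with 1 library. Without LPS p16-positive replicate 4, the deepest, the median of the members still tested was 0.17, beside 0.07 over all genes. In that run the 46 abundant genes had a median of 0.25 with 39 positive, close to the 0.22 over the 1976 genes of that abundance, of which 73.0% were positive. With library totals alone the median over all genes was −0.08 and that of the 79 genes 0.05, with 43 positive. Single fold changes were imprecise, with a median standard error of 0.33 for genes of at least 300 UMIs and 0.47 for the others. Among the 46 abundant genes the values ran from −0.05 (Ndufb3) to 0.95 (Cox4i1).

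**Figure D2:**
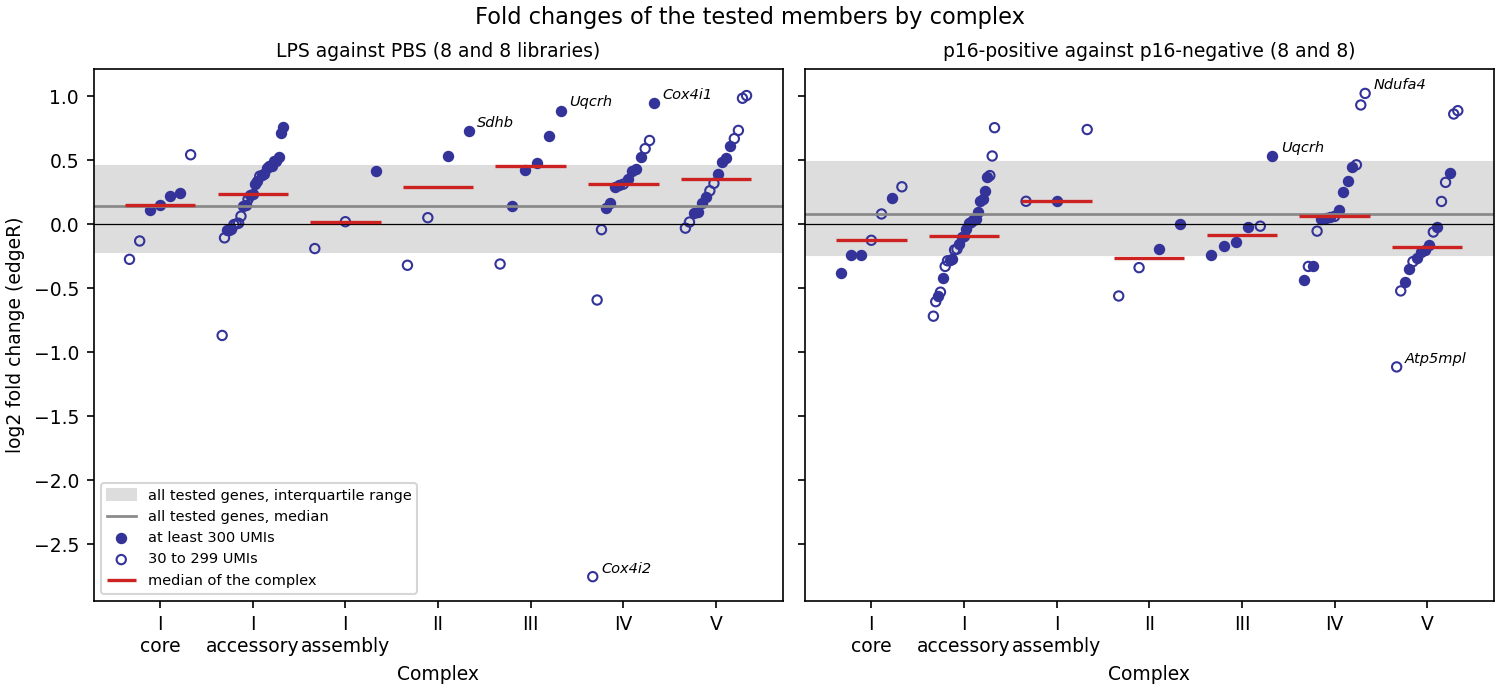
Log2 fold change (edgeR) of each tested gene, by complex, for LPS against PBS (left) and p16-positive against p16-negative cells (right), 8 libraries on each side; filled points had at least 300 UMIs, red lines are medians of the complex, and grey shows the median and interquartile range of all 6516 tested genes. On the left the medians of complexes III (0.46) and V (0.36) lie above the all-gene median of 0.14 and Cox4i2 stands apart at −2.75, and on the right the medians lie on both sides of 0.

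Complex I takes electrons from NADH through a flavin and a chain of iron-sulphur clusters. Its 7 core subunits in the table had a median log2 fold change of 0.15 for LPS against PBS, with 5 positive, close to the all-gene median of 0.14. Ndufs3, an iron-sulphur protein subunit, had 0.54 (SE 0.42), and Ndufs7, which carries the last iron-sulphur cluster before ubiquinone, 0.25 (SE 0.35). With library totals the core median was −0.12.

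The 27 accessory subunits, which surround the core and are needed for its assembly and stability, had a median of 0.24, with 21 positive. Ndufa3 was at 352, 709, 663 and 652 scaled CPM in PBS p16-negative replicates 1 to 4 and at 270.5, 580.3, 734 and 594 in PBS p16-positive cells. After LPS it was at 831, 882, 1209 and 669.8 in p16-negative cells and at 1524, 1018, 940.3 and 597 in p16-positive cells. The highest values were those after LPS, but replicate 4 overlapped with PBS in both fractions, and the log2 fold change was 0.71 (SE 0.31, adjusted p = 0.441, edgeR).

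Ndufb10, an accessory subunit of the membrane arm, was at 264, 532, 529 and 866 scaled CPM in the p16-negative and at 155, 489, 438 and 375 in the p16-positive libraries of PBS lungs. After LPS the levels were 399, 866, 1423 and 458 in p16-negative and 1062, 874, 679.6 and 554 in p16-positive libraries. The p16-positive libraries did not overlap between treatments, the p16-negative ones did, and over both fractions the log2 fold change was 0.77 (SE 0.34, adjusted p = 0.449, edgeR). Ndufb7, the most abundant complex I transcript, showed how wide the spread could be. Its level was 1277 to 1949.7 in PBS p16-negative, 155 to 1819.5 in PBS p16-positive, 980.5 to 3167 in LPS p16-negative and 849 to 2439 in LPS p16-positive libraries, and its log2 fold change was 0.50 (SE 0.38). For Ndufa7 the value was 0.50 (SE 0.31). Of the 3 assembly factors tested, Ndufaf8 had 0.42 (SE 0.35), Ndufaf2 0.02 (SE 0.56) and Ndufaf3 −0.19 (SE 0.56). The pseudogene Ndufs5-ps, whose UMIs may stem from its parent gene, had 0.15.

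Complex II is succinate dehydrogenase, shared with the tricarboxylic acid (TCA) cycle and built from nuclear genes only. Sdhb, its iron-sulphur subunit, was at 44.0, 80.6, 71.7 and 107 scaled CPM in PBS p16-negative and at 77.3, 122, 98.6 and 84.5 in PBS p16-positive libraries. After LPS it was at 155, 163, 65.8 and 237 in p16-negative and at 110.3, 136, 121 and 190.3 in p16-positive libraries. In p16-negative cells LPS replicate 3 lay within the PBS range, and in p16-positive cells LPS replicates 1 and 3 lay below the highest PBS value. The log2 fold change was 0.73 (SE 0.32, adjusted p = 0.452, edgeR). Sdhc, a membrane anchor, had 0.54 (SE 0.31), from 239 ± 128 and 191 ± 109 in the PBS groups to 349 ± 49.0 and 325 ± 111 in the LPS groups, p16-negative first (mean ± SD, n = 4). The other anchor, Sdhd, had 0.05 (SE 0.45), and the catalytic flavoprotein Sdha had −0.32 (SE 0.53), so the 4 subunits did not share a direction.

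Complex III passes electrons from ubiquinol to cytochrome c. It had the highest median of the complexes for LPS against PBS, 0.46, with 5 of 6 genes positive. Uqcrh, the hinge protein at the cytochrome c docking site, was at 88.0, 209, 161 and 242 scaled CPM in PBS p16-negative and at 193, 214, 219 and 293 in PBS p16-positive libraries. It was at 244, 359, 139.8 and 456 in LPS p16-negative and at 558, 467, 233 and 696 in LPS p16-positive libraries. In both fractions 3 of 4 LPS libraries exceeded every PBS library of that fraction, replicate 3 being the exception, and the log2 fold change was 0.89 (SE 0.32, adjusted p = 0.223, edgeR, with a range from 0.142 to 0.512 over 25 alternatives). Uqcr10, a small subunit, had 0.69 (SE 0.32, adjusted p = 0.485, edgeR). In PBS lungs it was at 132, 177, 287 and 368 scaled CPM in p16-negative and at 38.6, 356, 285 and 243 in p16-positive libraries. In LPS lungs it was at 233, 498, 576 and 331 and at 455, 483, 317 and 379.7, which overlaps with PBS in both fractions. Uqcr11 had 0.48 (SE 0.32), the core protein Uqcrc1 0.14 (SE 0.29), the Rieske iron-sulphur protein Uqcrfs1 0.43 (SE 0.40) and cytochrome c1, Cyc1, −0.31 (SE 0.50).

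Complex IV, cytochrome c oxidase, reduces oxygen to water. COX4 is its nuclear-encoded regulatory subunit, known to make the enzyme sensitive to ATP. Cox4i1 was at 836, 2191, 2114 and 2888 scaled CPM in PBS p16-negative and at 889, 1792, 1989 and 1591 in PBS p16-positive libraries. After LPS it was at 3002, 3732, 6218 and 2330.2 in p16-negative and at 4234, 2866, 3398 and 2046 in p16-positive libraries. In p16-positive cells all 4 LPS libraries were above all 4 PBS libraries, and in p16-negative cells only LPS replicate 4 fell within the PBS range. The log2 fold change was 0.95 (SE 0.35, adjusted p = 0.270, edgeR), and in DESeq2 it was 0.75 with an adjusted p of 0.0302. With library totals it was 0.62, and without both shallow PBS libraries 0.72. Cox4i1 made up 12.5% and 11.9% of the UMIs of the 82 genes in the PBS groups and 18.0% and 15.5% in the LPS groups, p16-negative first.

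The other complex IV genes not named for a tissue had smaller values. Cox7a2 had 0.66 (SE 0.41), Cox6b1 0.53 (SE 0.36), Cox6c 0.43 (SE 0.39), Cox7a2l 0.42 (SE 0.29) and Cox7c 0.36 (SE 0.36). Cox8a had 0.31 (SE 0.42), Cox7b 0.31 (SE 0.63), Cox5a 0.29 (SE 0.33), Cox6a1 0.16 (SE 0.29) and Cox5b 0.13 (SE 0.34). All of these were positive. Ndufa4 was at −0.59 (SE 0.75) from 35 UMIs, and the median over the 15 tested genes of the complex was 0.31. Isoforms known for other tissues were scarce: Cox7a1, the heart and muscle isoform, had 37 UMIs in all, and Cox6b2, the testis isoform, had 141, with log2 fold changes of 0.59 (SE 0.76) and −0.04 (SE 0.41).

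**Figure D3:**
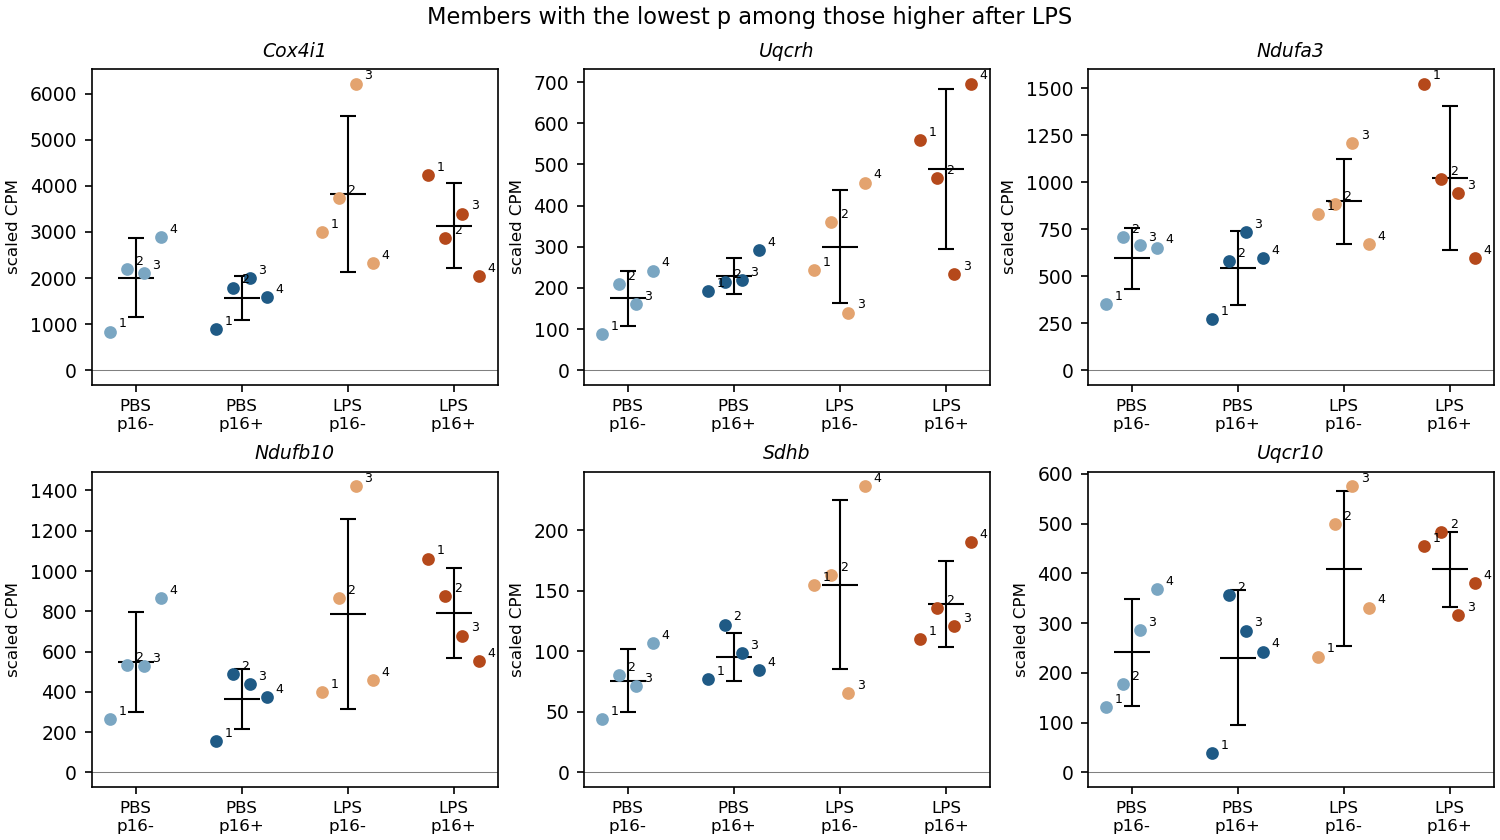
Levels in scaled CPM of the 6 genes with a positive log2 fold change and an unadjusted p under 0.05 for LPS against PBS, in each library (points with replicate number), with group mean and SD (bars, n = 4). Cox4i1 runs from 836 to 2888 in PBS libraries and from 2046 to 6218 in LPS libraries, and for each gene some LPS and PBS libraries overlap.

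Cox4i2, an isoform of COX4 known from lung and from hypoxic and vascular cells, had a negative value and the lowest p of the 79 genes. Its UMIs were 1, 2, 0 and 2 in PBS p16-negative replicates 1 to 4, 0, 11, 6 and 25 in PBS p16-positive, 1, 0, 2 and 1 in LPS p16-negative, and 1 in each LPS p16-positive library. Most of its 55 UMIs, 42 of them, thus came from 3 PBS p16-positive libraries, and no LPS library had more than 2. Scaled to depth, those 3 libraries were at 112, 32.9 and 54.2 scaled CPM, and the 4 LPS p16-positive libraries at 6.90, 3.99, 9.31 and 0.861. The log2 fold change for LPS against PBS was −2.75 (SE 0.75, adjusted p = 0.0716, edgeR), and the adjusted p ranged from 0.00282 to 0.202 over 24 alternatives. It passed in DESeq2 (adjusted p = 0.0144) and in voom (0.0415), and it also passed when 1 library was left out in 4 cases: PBS p16-negative replicate 3 (0.0308), LPS p16-positive replicate 2 (0.0304), and replicates 1 (0.0455) and 3 (0.0295) of LPS p16-negative cells, but not when both shallow PBS libraries were (0.105). Pooled over libraries, 47 UMIs in PBS and 8 in LPS gave a ratio of 13.1 in CPM, with a 95% counting interval from 6.12 to 32.0 that leaves out the spread between libraries.

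Ndufa4l2, below the filter, had a similar placement. In PBS lungs its UMIs were 0, 2, 1 and 2 in p16-negative replicates 1 to 4 and 0, 5, 2 and 8 in p16-positive ones. In LPS lungs they were 0, 1, 0 and 0 in p16-negative libraries and 0 in each p16-positive library. Pooled, 20 UMIs in PBS and 1 in LPS gave a ratio of 44.5 in CPM, with a counting interval from 7.12 to 1845. Without the filter, edgeR gave a log2 fold change of −3.98 and an adjusted p of 0.00993. Its end overlaps that of Shmt2 on the opposite strand, and the sources used here do not say whether counting used the strand.

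Some markers of other cells moved with both genes. The 9 endothelial markers all had negative log2 fold changes for LPS against PBS, with a median of −1.91 and 5 called, and summed, with the libraries of a group pooled, to 1753 CPM in PBS p16-negative, 6315 in PBS p16-positive, 403 in LPS p16-negative and 817 in LPS p16-positive cells. Alveolar type II markers ranged from 12553 to 49429 CPM in PBS p16-positive and from 1194 to 11679 in LPS p16-positive libraries. Pdgfrb, a pericyte receptor, was at 9.56, 35.1, 2.47 and 2.83 CPM in the 4 pooled groups in the same order, from 4, 26, 2 and 5 UMIs. Cspg4, another pericyte gene, was higher in the LPS groups, at 33.5, 47.3, 117 and 95.6 CPM. Higd1b, a gene known from pericytes that was looked up after the values were seen, had 6 and 23 UMIs in the PBS groups and 0 in both LPS groups, at least 21.5-fold higher in CPM in PBS over the floor of 3 counts per treatment. In PBS p16-positive replicates 2, 3 and 4, which held most of the Cox4i2 UMIs, it had 8, 2 and 13. A list of 10 pericyte and smooth muscle genes, also chosen afterwards and with 6 in the table, summed to 98.0, 242, 145 and 141 CPM by group. The part of such cells in the Cox4i2 and Ndufa4l2 values was not tested.

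**Figure D4:**
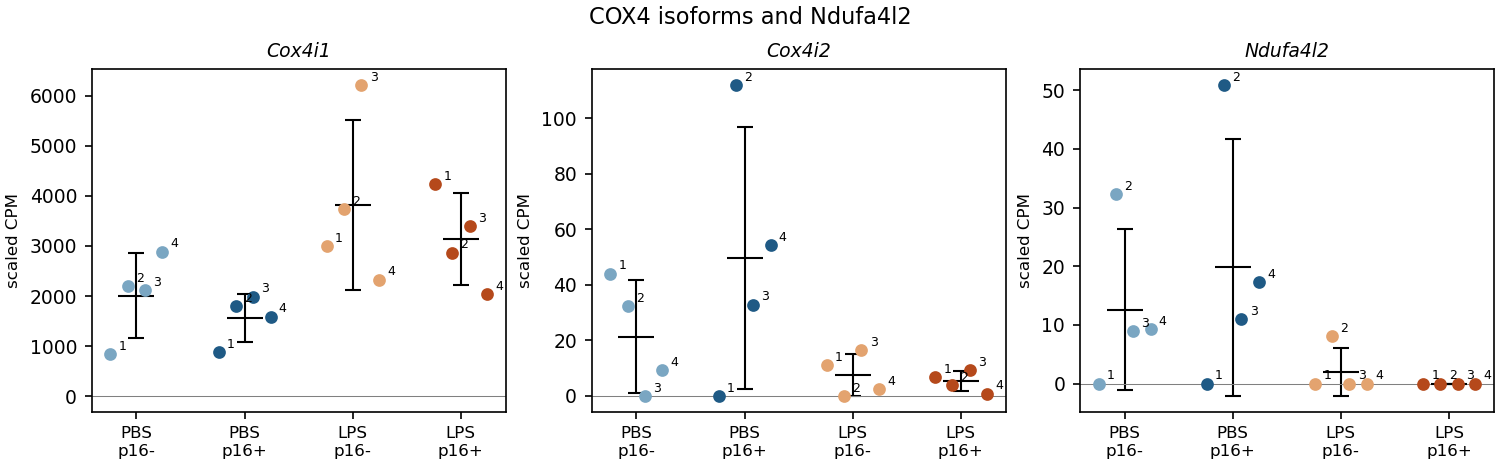
Levels in scaled CPM of Cox4i1, Cox4i2 and Ndufa4l2 in each library (points with replicate number), with group mean and SD (bars, n = 4). Cox4i1 is higher in most LPS libraries, whereas Cox4i2 reaches 112 in PBS p16-positive libraries and at most 9.31 in LPS p16-positive libraries, and Ndufa4l2 is at 0 in all LPS p16-positive libraries.

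Ndufa4, first named as a complex I gene, had only 35 UMIs in 11 libraries. In LPS lungs it was at 11.1, 0, 0 and 0 scaled CPM in p16-negative and at 13.8, 27.9, 9.31 and 7.75 in p16-positive libraries, giving a log2 fold change of 2.83 for p16-positive cells (SE 1.20, adjusted p = 0.500, edgeR). The value rests on a few counts, since 3 UMIs came to between 7.64 and 33.2 scaled CPM in the LPS p16-negative libraries.

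Complex V, ATP synthase, turns a rotor of c subunits as protons pass and makes ATP in its catalytic head. For LPS against PBS 15 of its 16 tested genes were positive, with a median of 0.36. Atp5j2, a membrane subunit, was at 396, 467, 529 and 685 scaled CPM in PBS p16-negative and at 38.6, 529, 400.1 and 401 in PBS p16-positive libraries. After LPS it was at 409.8, 988, 962 and 492 in p16-negative and at 593, 751, 614 and 584 in p16-positive libraries. LPS and PBS libraries did not overlap in p16-positive cells, while p16-negative libraries did, and the log2 fold change was 0.62 (SE 0.33, adjusted p = 0.605, edgeR). Atp5o, in the stalk, had 0.74 (SE 0.46) and Atp5l 1.01 (SE 0.72) from 55 UMIs. Genes of the catalytic head had smaller values: Atp5a1 had 0.21 (SE 0.33), Atp5b, the catalytic subunit, 0.17 (SE 0.31), Atp5c1, in the central stalk, 0.26 (SE 0.47), Atp5d 0.09 (SE 0.31) and Atp5e, also in the central stalk, 0.10 (SE 0.30). Of the c-subunit genes, Atp5g3 had 0.49 (SE 0.37) and Atp5g1 −0.03 (SE 0.47).

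Within the fractions, LPS against PBS had a median of 0.40 over the 79 genes in p16-positive cells (0.19 over all genes) and of 0.19 in p16-negative cells (0.10 over all genes). With library totals the p16-negative median of the 79 genes was −0.01 and the p16-positive one 0.14. Single libraries moved both. In p16-negative cells the median was 0.02 without LPS replicate 4, with 41 positive, 0.10 without PBS replicate 1 and 0.30 without LPS replicate 1, and its distance from the all-gene median ran from −0.0085 to 0.16 when 1 library was left out. In p16-positive cells it was 0.21 without LPS replicate 4, beside 0.04 over all genes. The 46 genes with at least 300 UMIs had a median of 0.50 in p16-positive cells, beside 0.33 over the 1976 genes of that abundance. Without LPS replicate 4 these values were 0.27 and 0.22. In p16-negative cells, with all libraries, they were 0.32 and 0.25. Of the 79 genes, 41 were positive in both fractions, 6 negative in both, and 32 differed in sign. In edgeR, 0 of the 79 were called in either fraction, against 0.046% of all genes in p16-positive and 0.0153% in p16-negative cells. At an unadjusted p under 0.05 edgeR gave 4 genes in p16-positive cells (Cox4i2, Uqcrh, Uqcrfs1 and Ndufb10), against 6.15% of all genes, and 1 in p16-negative cells (Ndufa4), against 4.39%. DESeq2 called 0 of the 79 in both fractions, against 22 of all 6516 genes in p16-positive and 5 in p16-negative cells. Voom called 1 in p16-positive cells, Cox4i2, against 36 of all genes.

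The log2 fold changes of these 4 genes in p16-positive cells were −3.83 for Cox4i2 (SE 0.96, adjusted p = 0.119, edgeR), 1.12 for Uqcrfs1 (SE 0.55), 1.07 for Uqcrh (SE 0.45) and 1.06 for Ndufb10 (SE 0.49). In p16-positive cells 7 genes had all LPS libraries above all PBS libraries (Atp5j2, Cox4i1, Ndufa5, Ndufb10, Ndufs3, Ndufv3 and Uqcrfs1), an order that 2.41% of all genes had, and 0 had the reverse order, which 1.14% of all genes had. In p16-negative cells 0 genes had either order, against 1.98% of all genes above and 0.813% below. In scaled CPM, PBS p16-positive replicate 1, one of the shallowest libraries, was the lowest of its group for Ndufb7, Ndufb10, Atp5j2, Cox4i1, Ndufa3 and Uqcr10. It also had the highest TMM factor (1.92). There the 82 genes summed to 7070 scaled CPM, beside 14547 to 15739 in the rest of its group. The unscaled share of UMIs was 1.32%, beside 1.46% to 1.56%. Without both shallow PBS libraries the p16-positive median was 0.31 with 62 of 79 positive, and the p16-negative one 0.10 with 49.

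Whether the LPS difference itself differed between the fractions was tested by an interaction term. In edgeR 0 of the 79 genes were called, as for all genes (0%), and 0 had an unadjusted p under 0.05, against 1.55% of all genes. DESeq2 gave 0 at that unadjusted level (41 of all 6516 genes) and voom 1 (181 of all genes), with 0 called by either. The fractions were therefore not shown to differ. For Cox4i2 the term was −2.72 on the log2 scale and for Cox4i1 the fraction values were 0.91 and 0.99.

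**Figure D5:**
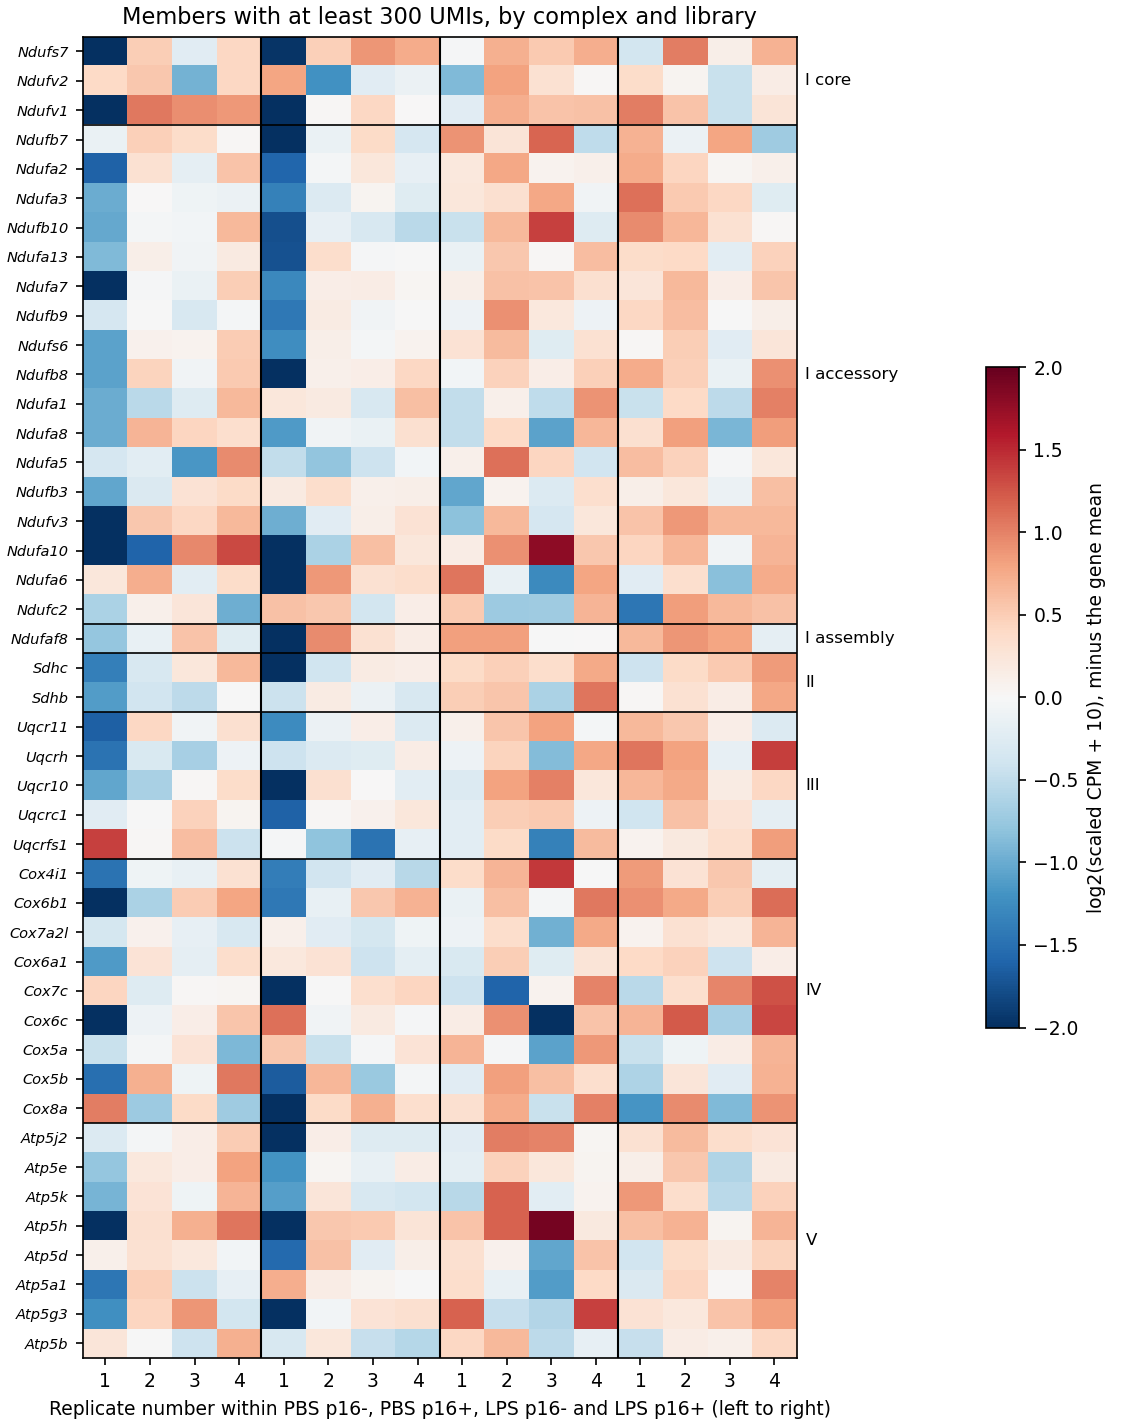
Log2(scaled CPM + 10) of 45 of the 46 genes with at least 300 UMIs, minus each gene's mean, by complex (rows, most abundant first within each) and library (columns, replicates 1 to 4 of the 4 groups). Red tones are more frequent in the LPS columns. The column of PBS p16-positive replicate 1, which had the highest TMM factor (1.92), is blue for many genes, among them Ndufb7 and Atp5j2.

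The comparison of p16-positive with p16-negative cells, over both treatments, asked what p16 staining went with. In edgeR 0 of the 79 genes were called, where 1.41% of all genes were, and 0 had an unadjusted p under 0.05, where 10.2% of all genes did. DESeq2 also gave 0 at either level, against 69 of all 6516 genes called and 665 at the unadjusted level. Voom gave 2 at the unadjusted level, against 728 of all genes, and called 0, against 9. The median log2 fold change was −0.03, with 36 genes positive and 43 negative, beside 0.08 over all genes, and it ran from −0.11 to 0.02 when 1 library was left out. For genes of at least 300 UMIs the log2 fold change ran from −0.56 (Ndufa10) to 0.53 (Uqcrh), with a median standard error of 0.33. The median of these 46 genes was −0.03, beside −0.04 over the 1976 genes of that abundance, so the distance from all genes was not seen there. All 92 genes called over the whole table were higher in p16-positive cells, among them markers of ciliated, secretory and endothelial cells, whose part in the values of the 79 genes was not tested.

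By complex, the p16 medians were −0.12 for the complex I core, −0.09 for accessory subunits, 0.18 for assembly factors, −0.26 for complex II, −0.08 for complex III, 0.06 for complex IV and −0.18 for complex V. Uqcrh had the lowest p, and its log2 fold change was 0.53 (SE 0.31, adjusted p = 0.655, edgeR). The others with the lowest p in their complexes were Ndufv1, the NADH-binding subunit, at −0.38 (SE 0.37), Ndufb11 at 0.76 (SE 0.47), Ndufb5 at −0.72 (SE 0.48), Ndufaf3 at 0.74 (SE 0.56), Sdhd at −0.56 (SE 0.46), Ndufa4 at 1.02 (SE 0.78) and Atp5mpl at −1.11 (SE 0.71), the last 2 from 35 and 48 UMIs. None of these passed the test.

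The fractions were also compared within each treatment. In PBS lungs the median was −0.20 over the 79 genes, with 51 negative, beside 0.06 over all genes, and in LPS lungs it was −0.02, with 41 negative, beside 0.10. In PBS lungs the median was −0.01 without p16-negative replicate 4, with 39 positive, −0.06 without p16-positive replicate 1, and −0.13 without p16-negative replicate 2 or 3. In LPS lungs it lay on both sides of 0 when 1 library was left out, from −0.07 to 0.08. The 46 genes with at least 300 UMIs had a median of −0.17 in PBS lungs, beside −0.09 over the 1976 genes of that abundance. In LPS lungs these values were −0.01 and −0.02. Part of the distance from all genes thus went with abundance. In edgeR 0 of the 79 were called in either, as for all genes (0% in both), and at an unadjusted p under 0.05 there were 0 in PBS (5.54% of all genes) and 1 in LPS (6.83%), Ndufa4. DESeq2 gave 0 and 0 at that level (261 and 285 of all 6516 genes) and voom 3 and 1 (600 and 325 of all genes), with 0 called. With the 2 fractions of the same treatment and number taken as a pair, edgeR called 155 of 6516 genes in PBS lungs and 0 of the 79, whose lowest adjusted p was 0.220. In PBS lungs Cox4i2 had 1.93 (SE 0.96, adjusted p = 0.905, edgeR), and 13 of 16 complex V genes were negative with a median of −0.38. PBS p16-positive replicate 1 again held the lowest Atp5j2 level, 38.6 scaled CPM.

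Genes of neighbouring pathways were also read in the comparison of LPS with PBS, from lists set with earlier results of these data known. In edgeR 0 of them were called, where 0.921% of all tested genes were. Over all tested genes 61.0% were positive in this comparison, with a median of 0.14. Of the TCA cycle enzymes 6 of 7 tested were positive with a median of 0.15, with Idh3b at 0.84 (SE 0.48). Assembly factors with other names, such as Uqcc2 for complex III at 0.58 (SE 0.33), were positive in 17 of 24 cases with a median of 0.29. Genes for ubiquinone synthesis had a median of 0.39 with 6 of 8 positive, and Coq8b, a kinase-like protein of that pathway, had 0.66 (SE 0.42). Of 3 further ATP synthase factors all were positive, with Atpif1, its inhibitor, at 0.32 (SE 0.34). Among carriers and uncouplers 8 of 9 were positive with a median of 0.24, and Mpc1, a pyruvate carrier subunit, had 0.91 (SE 0.49). Regulators of mitochondrial genes were split, with 3 of 7 positive and a median of −0.02: Pparg, which alveolar macrophages need for their identity, had 1.02 (SE 0.52), Esrra, which encodes ERRA, 0.44 (SE 0.33) and Nrf1 −0.44 (SE 0.53).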

How the data were processed

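Bulk MARS-seq libraries of 4 groups (4 libraries each) were analysed. The authors processed the reads with the UTAP pipeline against mm10 and deposited raw UMI counts per gene, together with normalized counts, a signal equal to the counts divided by a size factor per library, which was not used. Regularised log2 values per library, also deposited by the authors, were not used. The authors' deposited columns of log2 fold changes and p-values hold their own comparisons and were not used either. No source used here gives the version of that pipeline. No per-sample column was left out (0).

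Genes with at least 30 UMIs over the 16 libraries were tested with edgeR 4.0.16 (R 4.3.3; quasi-likelihood, TMM factors, Benjamini-Hochberg over all 6516 genes, threshold 0.05), with all groups in 1 fit. The standard error of an edgeR log2 fold change is its size divided by the square root of the F statistic. DESeq2 1.42.0 and limma 3.58.1 (voom with sample quality weights), other scalings and filters, and leaving out libraries were alternatives. The deposited files give UMI counts, so totals (13861 to 1176358) set the precision. Scripts were in R and Python 3.11.15, and only the edgeR fit was tested on simulated data, for the LPS and p16 comparisons. Copies were searched with blastn 2.17.0+ in GENCODE transcripts, for the 79 of the 82 genes found there by symbol. These are not the same 79 as were tested. Of them, 14 had a near-identical copy (at least 95% identity over 100 bases of the last 250), 12 of these a pseudogene. The last 500 bases of 12 genes overlapped another gene. UMIs of genes with a copy or an overlap, such as Atp5h, Atp5j2, Atp5l, Cox7c, Ndufa3 and Uqcrh, may therefore be shared.

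Genes named were those with the 3 lowest p-values for LPS and for p16 and the 3 most UMIs in each complex, and tissue isoforms; 1 gene is not reported here by name. The genes, the pathway lists and this rule were chosen with earlier results of these data known; other genes named for contrast were added after their values were seen. Same-numbered fractions of PBS mice deviated together (correlations of 0.146 to 0.345), those of LPS mice not in every case (−6.25e-05 to 0.610), and the pairing comes from the numbers only. Between PBS fractions of different number the correlations ran from −0.337 to 0.307. Depth rose with the replicate number in both PBS groups, and its part in these correlations was not tested.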

Additional observations from a re-analysis of the deposited data

Results flagged for a closer look

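In 4 of 80 groups of 4 libraries, 1 library lay far from the other 3 by Dixon's criterion, and chance alone gives about 1 in 20. The share of UMIs on complex I genes was 0.483% in PBS p16-positive replicate 1 and between 0.700% and 0.706% in the other PBS p16-positive libraries. With marker genes of other cell types taken out it was 0.686%, beside 0.732% to 0.805%; this library held 268018 CPM of secretory airway markers. For the accessory subunits of complex I alone it was 0.375%, beside 0.567% to 0.592%. Ndufa3 was at 352 scaled CPM in PBS p16-negative replicate 1, whose TMM factor was 1.47, and between 652 and 709 in the other 3. Ndufa4l2 was at 8.17 in LPS p16-negative replicate 2, from 1 UMI, and at 0 in the other 3. The first 3 values came from the 2 shallowest libraries, of 13861 and 15755 UMIs, which also had the highest secretory airway sums. The part of depth and of other cells in them was not otherwise tested.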

How the results depend on the processing

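For LPS against PBS, 0 of the 79 genes were called with the settings used throughout and 2 with DESeq2. With library totals only, with voom and with a replicate block by number 1 was called. Over all 6516 genes 60 were called with the settings used throughout, 135 with DESeq2, 68 with library totals, 127 with voom and 242 with the block. With no low count filter 1 of 82 was called, Ndufa4l2, and 0 of the 79, against 82 of all 7946 genes. Leaving out 1 library at a time gave 0 to 1, the 1 being Cox4i2, whose log2 fold change then ran from −3.21 to −2.24. It was −2.97 with library totals, −2.96 in DESeq2, −2.33 in voom and −2.94 with the replicate block (adjusted p = 0.00282, edgeR). For LPS in p16-positive cells 1 was called with voom and with the replicate block, where 36 and 123 of all genes were. It was 0 to 1 when 1 library was left out. With library totals the medians for LPS against PBS were −0.12 in the complex I core, 0.014 in accessory subunits, 0.19 in complex III and 0.046 over all 79 genes. Without marker genes of other cell types the share of UMIs in PBS p16-positive cells was 1.70%. Some signs turned. For Ndufaf2 and LPS the value was −0.081 with RLE factors, −0.21 with library totals, −0.029 with upper-quartile factors, −0.075 in DESeq2 and −0.093 in voom, and from −0.22 to 0.26 when 1 library was left out (−0.065 to 0.43 for p16). Without both PBS replicate 1 libraries Ndufs7 was −0.00226 and Ndufaf3 0.15, and with 1 left out Ndufaf3 ran from −0.49 to 0.088. Atpif1 was −0.013 in voom. The causes were not tested. Of 52 gene values, 48 kept their sign in all alternatives.

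Replicate numbers were not stated to pair animals across treatments. The block by number moved the genes called over the table from 60 to 242 for LPS, and 9 of 16 libraries correlated best with their own number in the other treatment. Within treatments 13 of 16 did so with the other fraction, where pairing moved the genes called for p16 from 92 to 357, with 0 of the 79.

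Depth limits the scarce genes. The 33 tested genes under 300 UMIs had a median standard error of 0.47, and Cox4i2, Ndufa4 and Ndufa4l2 rest on 55, 35 and 21 UMIs.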
